A study of Mus musculus with 6 samples.

Results

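The genes described here are those of the crypt stem cell and of the Wnt pathway that keeps it dividing, in the epithelial fraction of the mouse colon with and without Lingo3, which encodes a transmembrane leucine-rich repeat protein. They were taken by name from a list of 39 genes, and 35 of these had a row among the 15138 genes of the authors' deposited comparison table. The rule uses gene names only, and the list was drawn up when earlier results of these data were known. RNA was sequenced from 6 libraries of mice 2 months old, 3 labelled wild type and 3 labelled Lingo3-/-, all kept under naive conditions. Cells were washed off the colon with EDTA and DTT per the shared protocol text, and the label of wild type replicate 1 names both agents where the other 5 labels name EDTA alone. How the Lingo3 allele was made, and whether the libraries came from separate animals, is not given in the labels, so a p-value here sets a difference against the spread of these samples, and that spread may be technical.

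Wnt ligands, which cells secrete with the help of the carrier Wls, bind Frizzled receptors and stop a cytoplasmic destruction complex from marking beta-catenin for breakdown. Beta-catenin then enters the nucleus and switches on target genes together with TCF and LEF factors. In the colon this signal is strongest at the crypt base, where R-spondins acting on Lgr receptors strengthen it and where Lgr5-positive stem cells renew the lining, while the target genes Axin2, Rnf43, Znrf3, Nkd1 and Notum damp it again.

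Counts over genes ran from 25010618 to 28029583 in the wild type libraries and from 11868000 to 17200931 in the Lingo3-/- libraries, so the wild type values rest on deeper sequencing. Mitochondrial transcripts took 45.3 to 48.4% of the counts in wild type and 34.7 to 36.3% in Lingo3-/-. Reads of Lingo3 numbered 3, 3 and 1 in the wild type libraries and 2, 0 and 1 in the Lingo3-/- libraries, at or under the floor of 3 counts, so it does not check the genotype labels and a difference in it was not detectable at this depth. The epithelial marker Epcam stood at 644 to 1006 CPM in the 6 libraries. Defining markers of T cells, fibroblasts and B cells were also present in every library, with 4.93 to 14.9 CPM of Cd3e, 12.4 to 85.5 CPM of Col1a1 and 1.28 to 6.71 CPM of Cd79a. CPM, the counts of a gene relative to the size of its library, were computed after correction of the library totals by TMM factors, which allow for differences in composition, and are listed below in the order of replicates 1, 2 and 3.

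In the Lingo3-/- libraries 10 of the 35 members were higher and 4 were lower than in wild type. The 10 higher members were the stem cell transcription factors Ascl2, Sox9 and Ets2, the crypt base gene Cdca7, the receptor Lgr5, the surface and secreted proteins Smoc2, Lrig1 and Rgmb, the homeodomain protein Hopx and the Wnt carrier Wls. The 4 lower members, Lef1, Tcf7, Tcf7l2 and Bcl9l, were all TCF/LEF factors or a Bcl9 coactivator. Beta-catenin itself, its destruction complex and the tested feedback targets did not pass the test. A member is called here when its p from the quasi-likelihood test of edgeR, adjusted by Benjamini-Hochberg over the 16856 genes tested, is under 0.05. The higher members made 28.6% of the 35, where 9.43% of all tested genes were called higher, and the lower members made 11.4%, where 5.97% were called lower. All 35 passed the filter on low counts, and 19 had an unadjusted p under 0.05. Their median log2 fold change was 0.14, against -0.03 over all genes tested. These are bulk libraries, in which fewer cells of a type and less RNA per cell cannot be told apart.

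The 3 values of each genotype did not overlap for 12 of the 35 members in the higher direction (34.3%) and for 6 in the lower direction (17.1%). Over all tested genes these shares were 19.7% and 16.0%, so the count of lower members without overlap was near that of genes in general. In the authors' deposited table, made with DESeq2, 10 members were higher and 5 lower at an adjusted p under 0.05, where 10% and 6.72% of its genes were. The 14 members called by edgeR were all called there in the same direction, and Igfbp4 was called lower there only, with a log2 fold change of -0.97 and an adjusted p of 0.00190 in the authors' deposited table. Both come from the same counts, so neither is independent of the other.

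Scaling changed this split. With the library totals alone, which moved the median over all genes up by 0.28 on the log2 scale, 20 members were called higher and 1, Lef1, lower. Scaled to the summed counts of 15 pan-epithelial genes, which shifted that median by -0.21, 3 were called higher (Ascl2, Sox9 and Cdca7) and 4 lower, and the median over the members turned to -0.07. None of the 14 called members changed direction under any of the 16 alternatives run. The call was kept in all 16 for Ascl2, Cdca7 and Lef1, and in each of the 6 fits that left out 1 library it was also kept for Ets2, Lrig1, Rgmb and Bcl9l. The calls of Lgr5, Hopx and Wls were kept in only 5, 5 and 4 of the 16. These 3 dropped out, leaving 7 higher, with upper-quartile factors and with nuclear protein-coding genes only. The same 7 were left with limma-voom, with a mean CPM of at least 1 and with a replicate block. Without Lingo3-/- replicate 2 or without Lingo3-/- replicate 3, 6 members were called higher in place of 10. Without replicate 3 of that group the 6 included Axin2, which was not among the 10, and 2 were called lower in place of 4.

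**Figure D1:**
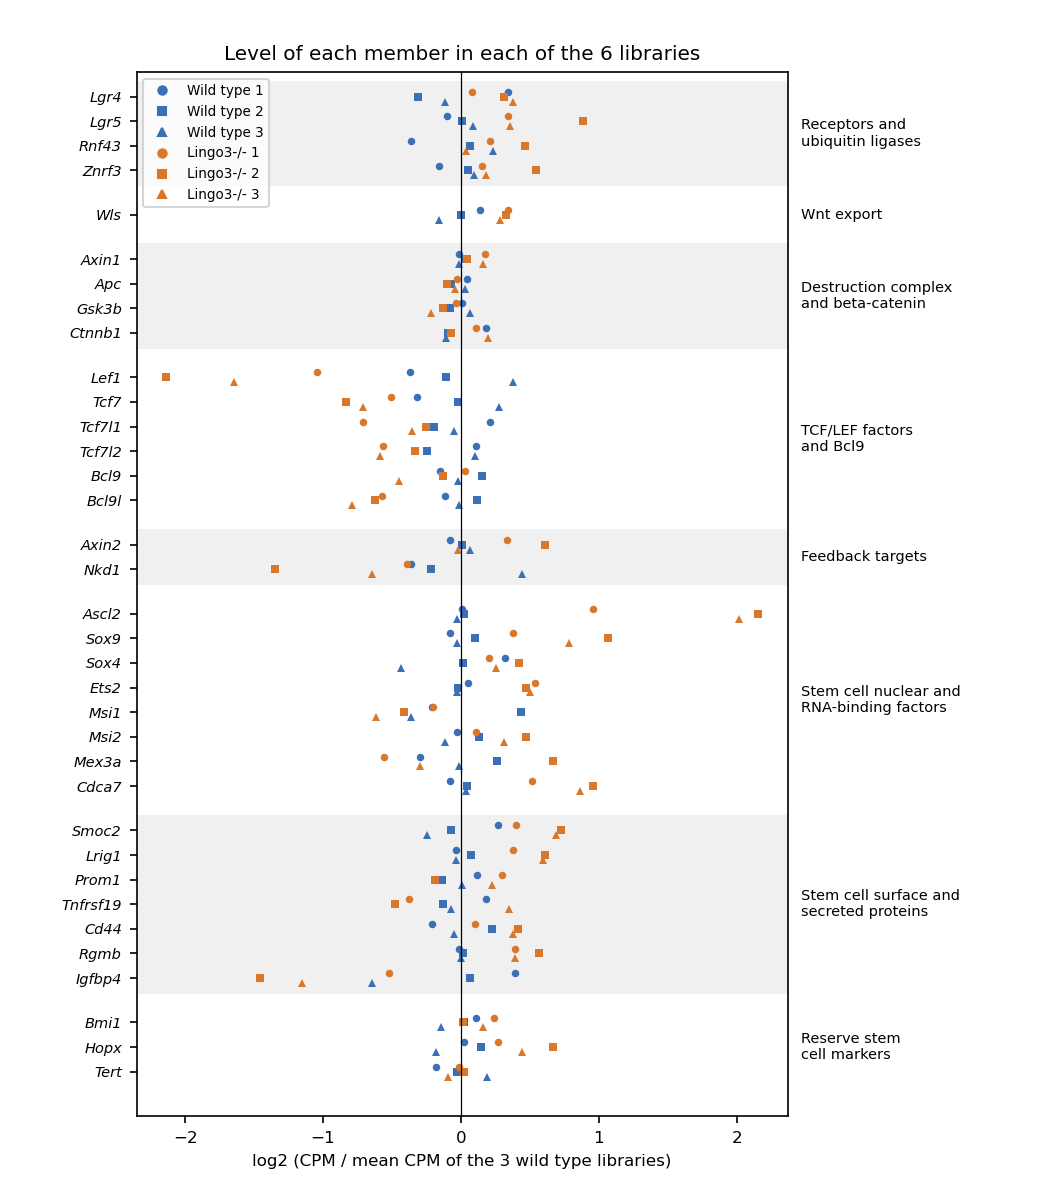
Level of each of the 35 members in each of the 6 libraries, as log2 of its CPM over the mean CPM of the 3 wild type libraries (horizontal axis), with members grouped by role (vertical axis); blue marks are wild type, orange marks Lingo3-/-, and circle, square and triangle are replicates 1, 2 and 3. The rightmost mark of all is that of Ascl2 in Lingo3-/- replicate 2 and the leftmost that of Lef1 in the same library, and the orange square, Lingo3-/- replicate 2, is the rightmost of the orange marks in 8 of the 10 members called higher.

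**Figure D2:**
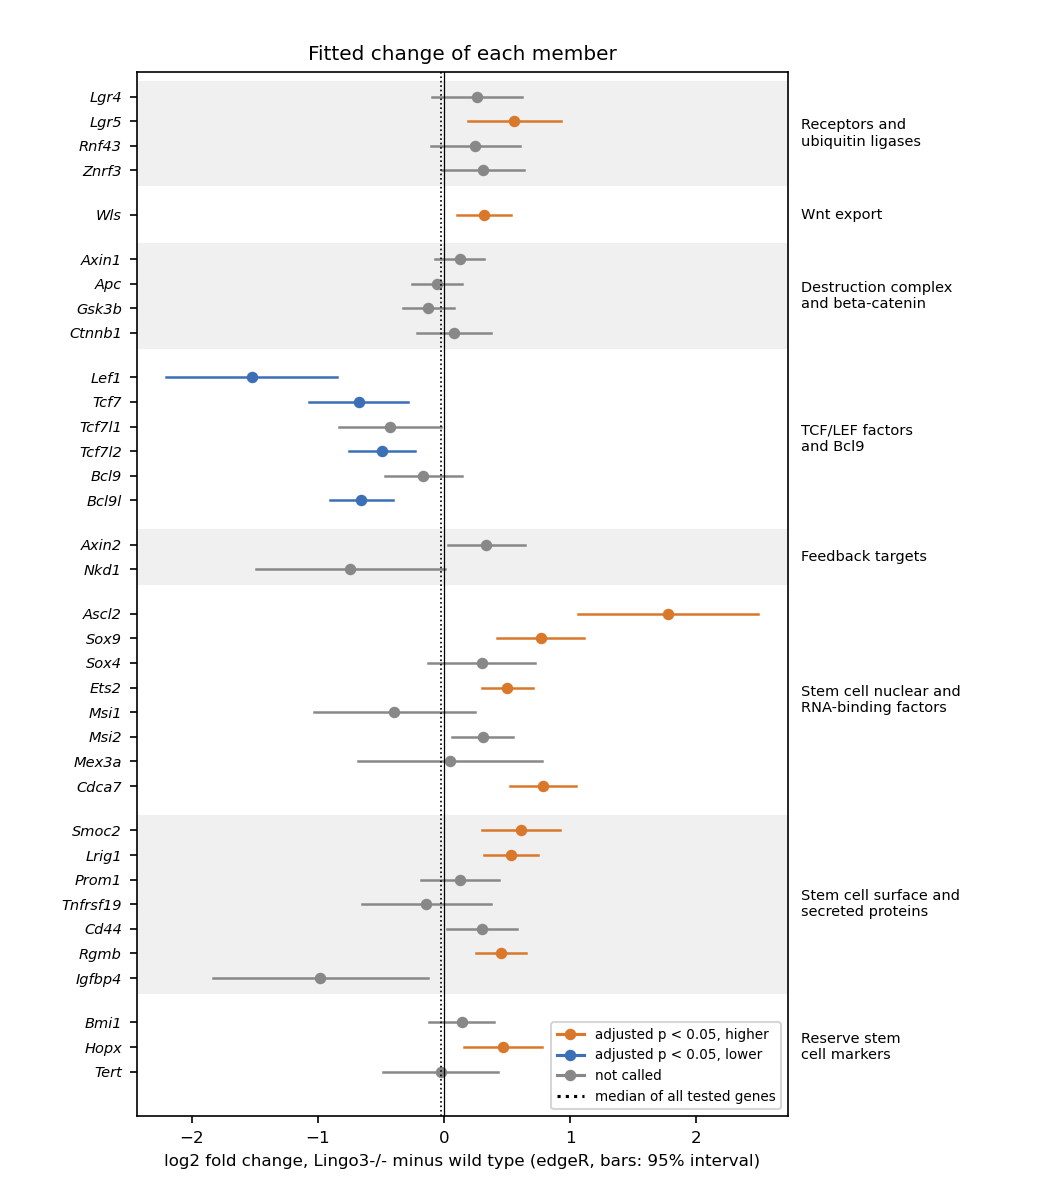
Fitted log2 fold change of each member, Lingo3-/- minus wild type (horizontal axis), with its 95% interval from edgeR as a bar; members are grouped by role, orange marks an adjusted p under 0.05 and higher, blue the same and lower, grey not called, and the dotted line is the median of all tested genes at -0.03. The 4 blue members all sit among the TCF/LEF and Bcl9 genes, and the 10 orange ones lie between 0.32 and 1.78.

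Receptors stand at the start of the pathway, and of the 4 receptor and ligase genes 1, Lgr5, passed the test. Over all tested genes 9.43% were called higher, and 1 of 4 genes is too few to set against that share. Lgr5, an R-spondin receptor and the usual marker of crypt base columnar stem cells, lies on the minus strand at chr10:115450311-115587780 of GRCm38. It was measured at 6.45, 6.98 and 7.37 CPM in wild type and at 8.81, 12.8 and 8.88 CPM in Lingo3-/-. Every Lingo3-/- library was above every wild type library, and replicate 2 stood apart from the other two of its group. The rise came to 0.56 on the log2 scale (edgeR adjusted p = 0.0447, SE 0.17). The call was kept without Lingo3-/- replicate 1 (adjusted p = 0.0324) and lost without each of the other 5 libraries (adjusted p from 0.0680 to 0.200 by edgeR), with a log2 fold change of 0.35 without Lingo3-/- replicate 2.

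Lgr4, the more widely expressed R-spondin receptor, and Rnf43 and Znrf3, the membrane ubiquitin ligases that remove Frizzled receptors and are removed in turn through R-spondin, had log2 fold changes of 0.25 to 0.31 and were not called (edgeR adjusted p from 0.183 to 0.309). Their 95% intervals reached from -0.10 at the lowest to 0.63 at the highest. The groups overlapped for Lgr4 and Rnf43 and did not for Znrf3. Without wild type replicate 1, Lgr4 was called higher (0.49 on the log2 scale, edgeR adjusted p = 0.0214) and Rnf43 was at 0.12.

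Wls, which carries Wnt ligands to the cell surface (chr3:159839672-159938664, plus strand), stood at 81.9, 74.5 and 66.5 CPM in wild type and at 94.1, 93.3 and 90.3 CPM in Lingo3-/-. The groups did not overlap, and the 3 Lingo3-/- values lay closer together than the wild type ones. Its log2 fold change of 0.32 (SE 0.10) was the smallest among the called members and the adjusted p, 0.0498 by edgeR, the nearest to the threshold. The call was kept without wild type replicate 1 (adjusted p = 0.0212) and lost without each of the other 5 libraries (adjusted p from 0.0850 to 0.138 by edgeR). Wnt3, a ligand best known from Paneth cells of the small intestine, had 5, 0 and 1 counts in wild type and 0 in each Lingo3-/- library, too few for a test.

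None of the 4 genes of the destruction complex and its substrate passed the test. Ctnnb1, which encodes beta-catenin (chr9:120929216-120960507, plus strand), was at 632, 521 and 518 CPM in wild type and at 601, 528 and 638 CPM in Lingo3-/-. The groups overlapped, with the highest and the lowest value in different groups. The fitted difference was 0.08 on the log2 scale (95% interval -0.21 to 0.37, edgeR adjusted p = 0.716). The scaffold genes Axin1 and Apc and the kinase gene Gsk3b had log2 fold changes of 0.13, -0.06 and -0.12, with intervals that reached from -0.33 at the lowest to 0.32 at the highest. Exons of Ctnnb1 share 759 bases (14.6%) with Ulk4 on the opposite strand, which had 69 to 174 counts per library, against 7972 to 13811 for Ctnnb1.

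Of the 6 members that encode TCF/LEF factors or Bcl9 coactivators 4 were lower, 0 were higher, and 5 had groups that did not overlap in the lower direction. Over all tested genes 5.97% were called lower and 16.0% were lower without overlap. Lef1, which encodes a TCF/LEF factor that is also a T cell gene (chr3:131110471-131224356, plus strand), was at 2.71, 3.24 and 4.55 CPM in wild type and at 1.70, 0.796 and 1.12 CPM in Lingo3-/-. The groups did not overlap, with wild type replicate 3 the highest and Lingo3-/- replicate 2 the lowest. Lef1 fell by 1.52 on the log2 scale (edgeR adjusted p = 0.00856, SE 0.31), which rests on 14 to 105 counts per library.

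Tcf7, which encodes TCF1 and is likewise a T cell gene (chr11:52252371-52283014, minus strand), was at 7.06, 8.67 and 10.6 CPM in wild type and at 6.18, 4.93 and 5.36 CPM in Lingo3-/-. The groups were separate by less than 1 CPM, and wild type replicate 3 was again the highest library. Its level fell by 0.68 on the log2 scale (edgeR adjusted p = 0.0264, SE 0.18). It was called without wild type replicate 1 and without Lingo3-/- replicate 1 (adjusted p = 0.0138 and 0.0305 by edgeR) and not without any of the other 4 libraries (0.0689 to 0.112).

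Genes of T cells were lower in the same libraries. Of 20 T cell markers, a list that holds neither Lef1 nor Tcf7, 18 were called lower and 0 higher, all 20 were lower without overlap, and the median log2 fold change was -1.14. The shares over all tested genes were 5.97% called lower and 16.0% lower without overlap. The summed level of the 20 markers was 505, 603 and 577 CPM in wild type and 328, 198 and 297 CPM in Lingo3-/-, with none of the defining markers named above at 0. Lingo3-/- replicate 2, the lowest library for Lef1 and Tcf7, was the lowest of its group for 19 of the 20 markers. In wild type the order differed, with the T cell sum highest in replicate 2 and Lef1 and Tcf7 highest in replicate 3. Of 9 B cell and plasma cell markers 4 were called lower and 0 higher, with a median of -1.63 and a summed level of 24.9 to 62.7 CPM in wild type and 14.2 to 18.8 CPM in Lingo3-/-. Of 7 tested markers of muscle and endothelium 3 were lower and 0 higher, with a median of -0.33. The part of T cell RNA in the lower values of Lef1 and Tcf7 was not tested.

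Tcf7l2, which encodes TCF4, the main TCF factor of the intestinal epithelium (chr19:55741820-55933654, plus strand), was at 133, 104 and 133 CPM in wild type and at 83.4, 97.7 and 82.1 CPM in Lingo3-/-. The groups did not overlap, and wild type replicate 2 and Lingo3-/- replicate 2 lay nearest to each other. Tcf7l2 fell by 0.49 on the log2 scale (edgeR adjusted p = 0.0191, SE 0.12). It was called without either of those 2 libraries (adjusted p = 0.0132 and 0.0269 by edgeR) and not without any of the other 4 (0.0536 to 0.0925). Per length of its exons Tcf7l2 was the most abundant of the 4 TCF/LEF genes in wild type, at 14.1 ± 1.91 CPM per kilobase (SD, n = 3), against 3.35 ± 0.680 for Tcf7, 1.59 ± 0.232 for Tcf7l1 and 0.399 ± 0.108 for Lef1, and these ranges did not touch. In Lingo3-/- the order of the 4 was the same, from 2.09 ± 0.241 CPM per kilobase for Tcf7 to 0.137 ± 0.0521 for Lef1 (SD, n = 3) below Tcf7l2.

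Bcl9l, a coactivator that ties beta-catenin to Pygopus proteins (chr9:44482825-44511896, plus strand), was at 16.97, 19.98 and 18.22 CPM in wild type and at 12.4, 11.9 and 10.6 CPM in Lingo3-/-. The gap between the groups was wider than the spread within either. The level fell by 0.66 on the log2 scale (edgeR adjusted p = 0.00439, SE 0.12), and the call was kept without any 1 library. Exons of Bcl9l share 110 bases (1.38%) with the B cell gene Cxcr5 on the opposite strand, which had 30, 100 and 51 counts in wild type and 17, 26 and 5 in Lingo3-/-, against 133 to 530 for Bcl9l. The part of Cxcr5 reads in the Bcl9l values was not tested. The paralog Bcl9 had a log2 fold change of -0.16 (95% interval -0.47 to 0.14, edgeR adjusted p = 0.450), and whether the 2 paralogs differ in response was not tested. Tcf7l1, which encodes the factor TCF3, was lower without overlap but not called, with a log2 fold change of -0.43 (unadjusted p = 0.0411, edgeR adjusted p = 0.142).

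Sequences just before the transcription starts of members were searched for 4 spellings of the TCF/LEF core site, the letters CTTTGAA, the letters CTTTGAT, the letters CTTTGTA and the letters CTTTGTT, on both strands. These spellings share their first letters. RefSeq starts on GRCm38.p6 were matched for 27 of the 35 members, with 41 windows of 250 bases. A match was found for 3 of the 27 genes (11.1%), Lef1, Tcf7l2 and Tnfrsf19, against 16.8% of 27025 RefSeq genes, and in 7.32% of the member windows against 14.8% of 32851 windows. The letters G and C made up a median of 63.6% of member windows and 52.4% of all windows. The shares were not adjusted for this, so they do not show that members lack the site. Of the 7 members called higher that had a window, 0 held a match. Among the 3 lower members with a window, Lef1 and Tcf7l2 held a match and Tcf7 did not. The other windows of Lef1 and Tcf7l2, including those nearest the starts of the genes, held none. The windows of Lef1 and Tcf7l2 that hold a match are shown because both genes were lower, and that of Ascl2 because it had the largest rise. Capitals mark the match, and each runs 5′ to 3′ on the strand of its gene. The Lef1 window is chr3:131156044-131156293 (plus strand), in an intron of the gene ahead of an internal start, with the match beginning at position -147 from that start. The Tcf7l2 window is chr19:55895071-55895320 (plus strand), also intronic ahead of an internal start, with the match beginning at -14. The Ascl2 window is chr7:142969265-142969514 (minus strand), outside annotated genes, with no match.
Lef1: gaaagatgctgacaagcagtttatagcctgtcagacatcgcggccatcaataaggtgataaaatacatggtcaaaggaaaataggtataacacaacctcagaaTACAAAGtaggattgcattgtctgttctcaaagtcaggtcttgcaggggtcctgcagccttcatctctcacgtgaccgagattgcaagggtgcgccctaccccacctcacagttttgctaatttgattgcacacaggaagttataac
Tcf7l2: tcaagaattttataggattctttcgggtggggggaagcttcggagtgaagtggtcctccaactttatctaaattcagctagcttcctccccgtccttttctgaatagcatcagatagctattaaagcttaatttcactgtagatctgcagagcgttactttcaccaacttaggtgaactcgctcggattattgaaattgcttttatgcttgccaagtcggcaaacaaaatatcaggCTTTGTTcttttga
Ascl2: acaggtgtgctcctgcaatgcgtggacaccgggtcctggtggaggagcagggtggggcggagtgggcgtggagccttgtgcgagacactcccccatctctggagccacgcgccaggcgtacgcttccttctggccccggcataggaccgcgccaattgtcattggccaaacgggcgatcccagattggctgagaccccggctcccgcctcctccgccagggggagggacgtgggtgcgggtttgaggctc
The counts are per gene, so they do not tell which start was used, and a match is a run of letters and not a measured binding site.

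The feedback targets of the pathway showed no called change. Axin2, a scaffold protein whose gene is a standard reporter of Wnt activity (chr11:108920349-108950783, plus strand), was at 21.1, 22.5 and 23.3 CPM in wild type and at 28.1, 34.1 and 22.0 CPM in Lingo3-/-. Lingo3-/- replicates 1 and 2 stood above all wild type libraries, and replicate 3 lay between wild type replicates 1 and 2. Its fitted difference was 0.34 on the log2 scale (SE 0.14, 95% interval 0.03 to 0.64, edgeR adjusted p = 0.127). Without Lingo3-/- replicate 3 it was called (log2 fold change 0.48, edgeR adjusted p = 0.0432).

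Nkd1, which binds Dishevelled and damps the signal, was lower without overlap at a log2 fold change of -0.74, from 12 to 51 counts per library, and was not called (edgeR adjusted p = 0.163). Notum, an extracellular enzyme that inactivates Wnt ligands, had 5, 2 and 3 counts in wild type and 3 in each Lingo3-/- library. Sp5, a transcription factor gene induced by Wnt, had 0, 3 and 4 counts in wild type and 2, 8 and 3 in Lingo3-/-. Notum and Sp5 were therefore not tested. Of the 6 feedback and ligase targets, with Rnf43 and Znrf3 counted in, 4 could be tested and 0 were called by edgeR, 1 of them at an unadjusted p under 0.05. DESeq2 called none of these 4 either.

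Stem cell transcription factors and RNA-binding proteins held the largest rises. Of 8 tested members of this group 4 were higher and 0 lower, where 9.43% of all tested genes were called higher. Ascl2, a basic helix-loop-helix factor that specifies intestinal stem cells (chr7:142966829-142969264, minus strand), was at 0.935, 0.943 and 0.911 CPM in wild type and at 1.80, 4.14 and 3.76 CPM in Lingo3-/-. The wild type libraries were nearly equal, and the lowest Lingo3-/- library, replicate 1, was still well above them. Ascl2 rose by 1.78 on the log2 scale (edgeR adjusted p = 0.00531, SE 0.33), a 3.43-fold difference that rests on 20 to 25 counts per wild type library and 35 to 78 per Lingo3-/- library.

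Cdca7, a Myc-regulated partner of the chromatin remodeller Hells (chr2:72476159-72486893, plus strand), was at 17.96, 19.53 and 19.47 CPM in wild type and at 27.1, 36.9 and 34.5 CPM in Lingo3-/-. The groups were far apart, with replicate 1 again the lowest of the Lingo3-/- libraries. The rise of 0.79 on the log2 scale (SE 0.12) had the smallest adjusted p among the members, 0.00242 by edgeR.

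Sox9, an HMG-box factor of the crypt base (chr11:112782224-112787760, plus strand), was at 13.23, 15.01 and 13.75 CPM in wild type and at 18.2, 29.3 and 24.1 CPM in Lingo3-/-. The Lingo3-/- libraries spread more widely than the wild type ones, with the same order as for Ascl2. Sox9 rose by 0.77 on the log2 scale (edgeR adjusted p = 0.00963, SE 0.16), and without Lingo3-/- replicate 3 the call was lost (adjusted p = 0.0506).

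Ets2, an ETS-family factor gene counted among Lgr5 stem cell signature genes (chr16:95702075-95721051, plus strand), was at 118, 113 and 112 CPM in wild type and at 166, 159 and 162 CPM in Lingo3-/-. Both groups were tight and clearly separate, and here Lingo3-/- replicate 1 was the highest. Its rise was 0.50 on the log2 scale (edgeR adjusted p = 0.00548, SE 0.09).

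The other tested members of this group, the HMG-box gene Sox4 and the RNA-binding protein genes Msi1, Msi2 and Mex3a, were not called, with log2 fold changes of 0.30, -0.39, 0.31 and 0.05. Msi2 came nearest (edgeR adjusted p = 0.0845), and it was called higher without Lingo3-/- replicate 1 (0.41 on the log2 scale, adjusted p = 0.0332). Msi1 and Mex3a had 15 to 66 counts per library, and the 95% interval of Mex3a ran from -0.68 to 0.78. Zcchc12, a zinc finger gene of the Lgr5 signature, had 2, 0 and 4 counts in wild type and 0 in each Lingo3-/- library and was not tested.

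Of the 7 surface and secreted proteins of stem cells 3 were higher and 0 lower, where 9.43% of all tested genes were called higher. Smoc2, a secreted matricellular protein of Lgr5-positive cells (chr17:14279506-14404790, plus strand), was at 20.9, 16.4 and 14.6 CPM in wild type and at 22.8, 28.6 and 27.8 CPM in Lingo3-/-. The nearest values of the 2 groups were those of replicate 1 in each. Smoc2 rose by 0.61 on the log2 scale (edgeR adjusted p = 0.0155, SE 0.14), and the call was lost without Lingo3-/- replicate 2 (adjusted p = 0.0545) and without Lingo3-/- replicate 3 (0.0729).

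Lrig1, a transmembrane brake on ErbB receptors (chr6:94604529-94700158, minus strand), was at 70.2, 75.8 and 70.3 CPM in wild type and at 93.8, 110 and 109 CPM in Lingo3-/-. All Lingo3-/- libraries were above all wild type libraries. Its rise was 0.53 on the log2 scale (edgeR adjusted p = 0.00548, SE 0.10). Rgmb, a co-receptor of bone morphogenetic proteins (chr17:15803188-15831039, minus strand), was at 26.6, 27.2 and 26.9 CPM in wild type and at 35.3, 39.8 and 35.3 CPM in Lingo3-/-. The wild type libraries were almost the same and the groups did not overlap, with a rise of 0.45 on the log2 scale (edgeR adjusted p = 0.00852, SE 0.09).

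Prom1, the gene of the surface glycoprotein CD133, Tnfrsf19, a receptor of the tumour necrosis factor family, and Cd44, the hyaluronan receptor, were not called, with log2 fold changes of 0.13, -0.14 and 0.30 (edgeR adjusted p from 0.128 to 0.719). All 3 had overlapping groups, and Cd44 was called higher without wild type replicate 2 (0.45 on the log2 scale, edgeR adjusted p = 0.0409). Igfbp4, a secreted binding protein of insulin-like growth factors, was at 24.7, 19.7 and 12.01 CPM in wild type and at 13.1, 6.84 and 8.48 CPM in Lingo3-/-. Wild type replicate 3 lay below Lingo3-/- replicate 1, so the groups overlapped. The fitted log2 difference was -0.98 (95% interval -1.84 to -0.13, edgeR adjusted p = 0.118), and without wild type replicate 3 it was called (-1.20, adjusted p = 0.0256).

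Within each genotype the summed level of fibroblast genes had the same order of libraries as Igfbp4. Across the genotypes the order differed. Wild type replicate 3 was below Lingo3-/- replicates 1 and 3 for the fibroblast sum, and below replicate 1 only for Igfbp4. The summed level of 12 fibroblast markers was 1346, 1241 and 471 CPM in wild type and 642, 313 and 544 CPM in Lingo3-/-, so wild type replicate 3 was the low one of its group here too. Of 11 tested fibroblast markers 1 was called lower (9.09%) and 0 higher, with a median log2 fold change of -1.15. Over all tested genes 5.97% were called lower, so this count was near that of genes in general. The part of fibroblast RNA in the Igfbp4 values was not tested.

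Among the 3 markers ascribed to slow-cycling or reserve stem cells 1 was higher, where 9.43% of all tested genes were called higher. A count of 1 among 3 is too small to set against that share. Hopx, an atypical homeodomain protein (chr5:77086988-77115121, minus strand), was at 9.73, 10.6 and 8.46 CPM in wild type and at 11.5, 15.3 and 13.04 CPM in Lingo3-/-. The groups were separate by less than 1 CPM. Hopx rose by 0.47 on the log2 scale (edgeR adjusted p = 0.0455, SE 0.14). It was called without Lingo3-/- replicate 1 (adjusted p = 0.0275) and not without any of the other 5 libraries (0.0528 to 0.177 by edgeR). Exons of Hopx share 412 bases (27.2%) with Hopxos on the opposite strand, which had 6 to 22 counts per library against 163 to 288 for Hopx.

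Bmi1, a Polycomb protein (chr2:18677018-18686629, plus strand), was at 14.5, 13.7 and 12.2 CPM in wild type and at 15.9, 13.6 and 15.04 CPM in Lingo3-/-. The groups overlapped. Its fitted log2 difference was 0.14 (95% interval -0.11 to 0.40, edgeR adjusted p = 0.438). Tert, the catalytic subunit of telomerase, had a log2 fold change of -0.02 from 33 to 74 counts per library (95% interval -0.48 to 0.43, edgeR adjusted p = 0.951).

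The members differed more from one another in level than between the genotypes. Per kilobase of exon, Ctnnb1 stood highest in wild type at 107 ± 12.6 CPM (SD, n = 3), followed by Prom1 at 46.2 ± 4.11, Lgr4 at 22.1 ± 5.31 and Ets2 at 19.8 ± 0.600, of which Lgr4 and Ets2 did not differ beyond their spread. The stem cell markers Lgr5 and Ascl2 were among the low ones, at 0.676 ± 0.0450 and 0.573 ± 0.0103 CPM per kilobase (SD, n = 3). In Lingo3-/- they were at 0.991 ± 0.225 and 1.99 ± 0.772, with the mean of Ascl2 above that of Lgr5. The lowest tested members were Nkd1, Msi1 and Mex3a, at 0.356 ± 0.113, 0.317 ± 0.0983 and 0.289 ± 0.0556 CPM per kilobase in wild type (SD, n = 3), which did not differ beyond their spread.

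**Figure D3:**
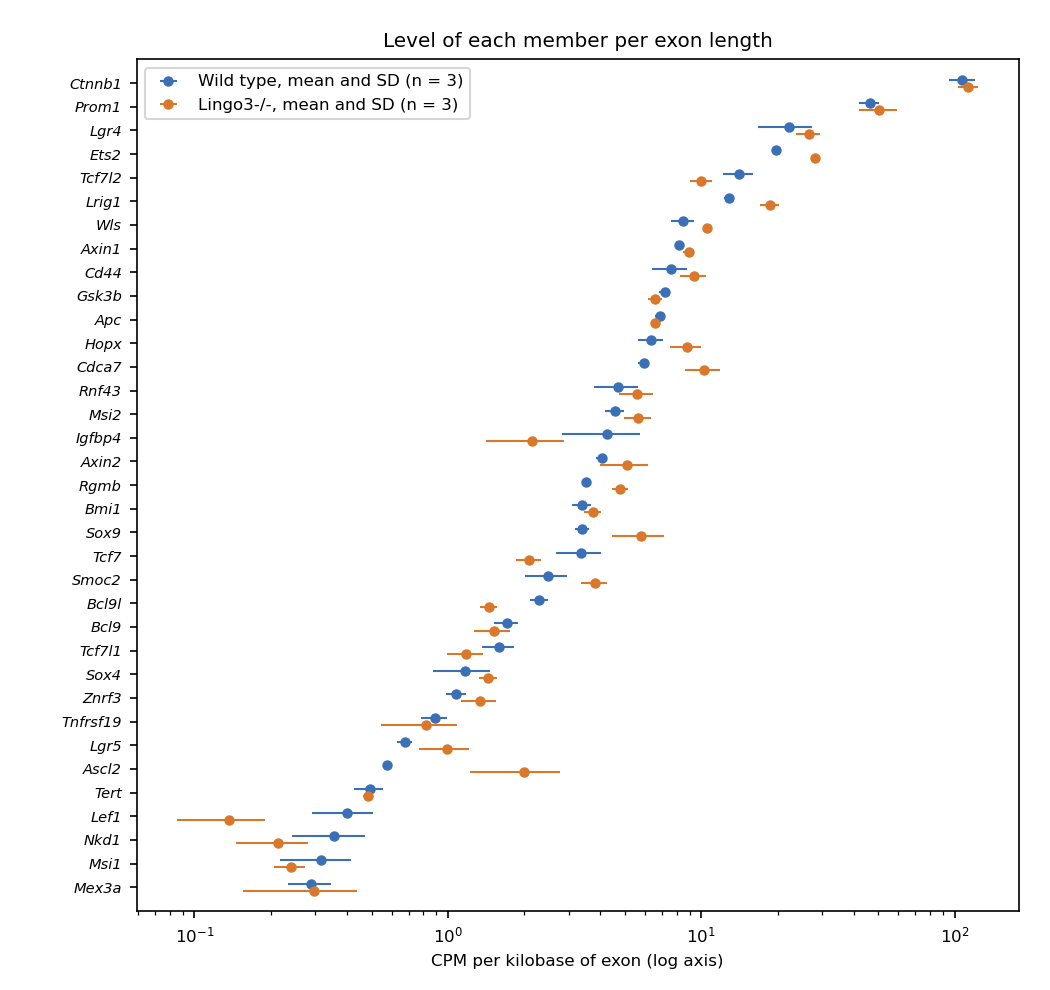
Mean level of each of the 35 members per kilobase of exon (horizontal axis, CPM per kilobase, log scale), in wild type (blue) and Lingo3-/- (orange), with the SD over 3 libraries as a bar; genes are ordered by the wild type mean. Ctnnb1 is at the top at 107 CPM per kilobase and Mex3a at the bottom at 0.289, and Ascl2 and Lef1 show the widest gaps between the colours.

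Within the Lingo3-/- group the same library was often the highest for the higher members. Replicate 2 was the highest of the 3 for 8 of the 10 members called higher, the exceptions being Ets2 and Wls, and replicate 1 was the lowest for 7. Over all 35 members replicate 2 was the highest for 18 and replicate 1 for 14. The share over all tested genes was not computed, and the genes of a library are not independent of one another. Of 20 cell cycle genes 15 were called higher and 0 lower, with a median log2 fold change of 0.55 and a summed level of 507 to 569 CPM in wild type and 688 to 850 CPM in Lingo3-/-. Replicate 2 was again the highest of its group for 17 of these 20. Over all tested genes 9.43% were called higher and 5.97% lower, so the count of higher cell cycle genes was far above that of genes in general. Of 15 pan-epithelial genes 3 were called higher and 0 lower, with a median of 0.21. Their summed level was 6127 to 7319 CPM in wild type and 7253 to 8850 CPM in Lingo3-/-. Of 10 genes of differentiated colonocytes 2 were higher and 1 lower, with a median of -0.28 that turned to 0.01 with library totals alone. Counts of 3 among 15, and of 2 and 1 among 10, are too small to set against the shares over all tested genes. With pan-epithelial factors 1 colonocyte gene was higher and 4 were lower, with a median of -0.49. With pan-epithelial factors 4 cell cycle genes were called higher in place of 15. The parts of dividing cells and of the epithelial share in the rise of the stem cell members were not tested.

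**Figure D4:**
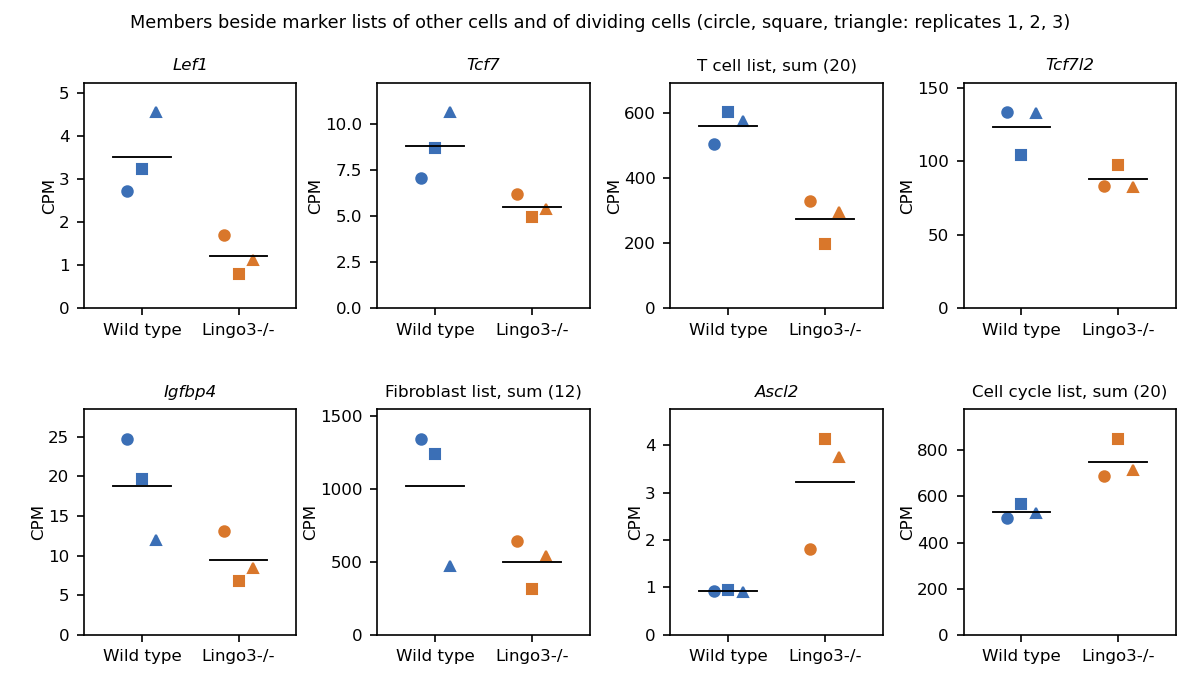
CPM in each library (vertical axes, each from 0) for Lef1, Tcf7, Tcf7l2, Igfbp4 and Ascl2 beside the summed CPM of the T cell, fibroblast and cell cycle marker lists; blue is wild type, orange Lingo3-/-, circle, square and triangle are replicates 1, 2 and 3, and lines are group means. The T cell sum falls from 505 to 603 CPM to 198 to 328 CPM, the fibroblast sum is low in wild type replicate 3 as Igfbp4 is, and the cell cycle sum is highest in Lingo3-/- replicate 2 as Ascl2 is.

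Other genes of the Wnt pathway were called in both directions. Of 81 further pathway genes 58 could be tested, of which 6 were higher (10.3%) and 3 lower (5.17%), with a median log2 fold change of -0.02. These shares are near the 9.43% and 5.97% of all tested genes, so they show nothing about the pathway as a whole. With library totals alone 20 were called higher, and with pan-epithelial factors 1 was higher and 5 lower. The higher ones were the receptors Fzd9 and Ryk (log2 fold changes 1.75 and 0.45), the Groucho-type corepressors Tle1 and Tle4 (0.56 and 0.41), Ctnnbip1, which blocks the binding of beta-catenin to TCF factors (0.57), and the corepressor Ctbp1 (0.35). The lower ones were the ligand Wnt9a (-1.78), the corepressor Tle3 (-0.59) and the acetyltransferase Ep300 (-0.34). By class, 2 of 15 tested receptors were higher, 0 of 18 cytosolic components were called in either direction by edgeR (3 at an unadjusted p under 0.05), and 4 of 14 nuclear components were higher and 2 lower. Of 7 tested ligand genes 1 was lower, and neither the 1 tested R-spondin nor the 3 tested secreted inhibitors were called by edgeR (0 and 1 at an unadjusted p under 0.05).

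Tle3, Tle1 and Tle4 encode closely related corepressors, and their levels went different ways. Tle3 was at 69.0, 71.5 and 70.1 CPM in wild type and at 43.5, 44.8 and 51.5 CPM in Lingo3-/- (edgeR adjusted p = 0.00298). Tle1 was at 26.1, 26.9 and 27.3 CPM in wild type and at 42.6, 39.6 and 36.1 CPM in Lingo3-/- (edgeR adjusted p = 0.00373). Neither gene had overlapping groups. With pan-epithelial factors 0 of the 14 nuclear components were called higher and 3 were lower, so the rises of Tle1 and Tle4 were not called there.

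Further genes of the crypt base and further Wnt targets, where called, mostly went in the higher direction. Of 20 tested genes of this list 13 were not called and 6 were higher (30.0%). The vitamin D receptor gene Vdr (-0.35, named after its value was seen) was the 1 called lower (5.0%). The median log2 fold change was 0.30. Of all tested genes 9.43% were called higher and 5.97% lower. For this list the counts of higher and lower genes were 13 and 0 with library totals alone and 5 and 3 with pan-epithelial factors. The higher ones were the ion transporter gene Slc12a2 (1.13), the surface marker Cd24a (0.92), the ephrin receptor gene Ephb2 (0.62), the cyclin gene Ccnd1 (0.84), the water channel gene Aqp4 (1.35) and Myc (1.04). Slc12a2 was at 165, 175 and 159 CPM in wild type and at 331, 399 and 360 CPM in Lingo3-/-, with wide space between the groups (edgeR adjusted p = 0.000785). Myc, a target of beta-catenin that drives growth, was at 6.87, 8.29 and 8.72 CPM in wild type and at 19.2, 18.8 and 10.7 CPM in Lingo3-/-, with replicate 3 nearest to wild type (edgeR adjusted p = 0.0114).

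**Figure D5:**
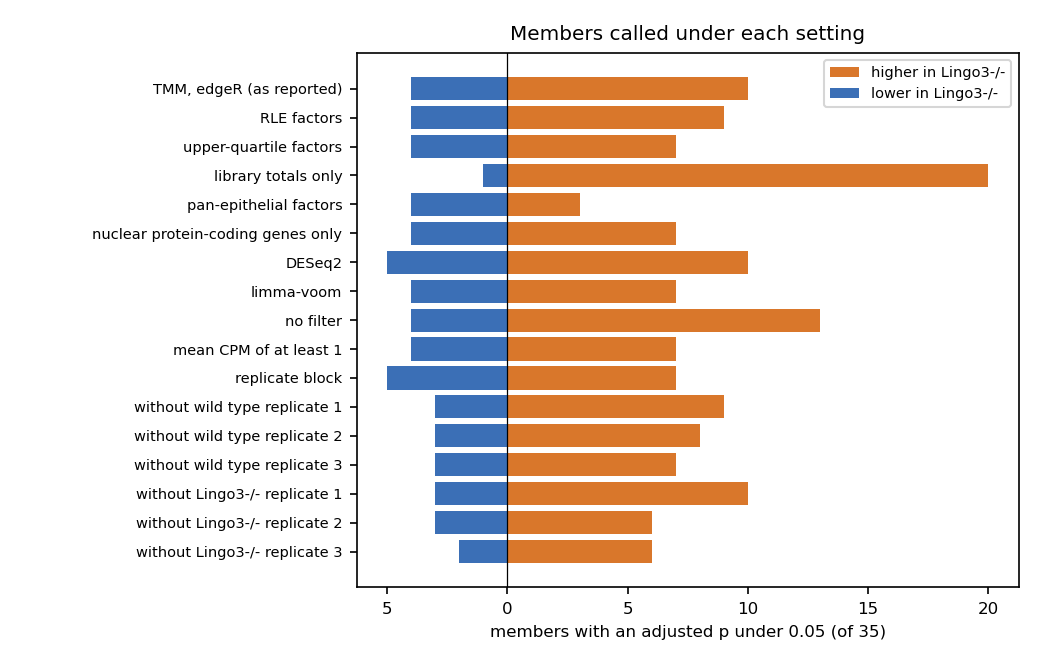
Number of the 35 members called at an adjusted p under 0.05 (horizontal axis; orange to the right, higher in Lingo3-/-, blue to the left, lower) under the settings as reported and under each of 16 alternatives (vertical axis). The counts are 10 higher and 4 lower as reported, 20 and 1 with library totals only, and 3 and 4 with pan-epithelial factors.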

How the data were processed

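Raw whole-number counts per Ensembl gene were deposited by the authors for the 6 libraries, not normalised. Per the submitters' processing notes, Trimmomatic 0.39, STAR, HTSeq and DESeq2 were used with GRCm38. No other version, no annotation release and no strand setting of the counting is given in the sources used here, so reads of genes that overlap on opposite strands may not be told apart. The kit, TruSeq Stranded Total RNA with Ribo-Zero Gold, marks strand per the labels' protocols. A second table, deposited by the authors, holds DESeq2's log2 fold changes and its p-values, per the file headers, and was used to find the members and beside the counts of calls.

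The HTSeq summary lines held 53.6 to 60.1% of reads and were left out. Counts were filtered with filterByExpr (minimum count 10, minimum total 15), scaled with TMM factors and tested 2-sided with edgeR 4.0.16 (robust quasi-likelihood, genotype the only term) in R 4.3.3, with limma 3.58.1 and DESeq2 1.42.0 for alternatives. A floor of 3 counts is 0.113 to 0.240 CPM per library and covers counting error only. The counts of every pair of libraries differed by more than sampling noise (chi-square over its degrees of freedom, 9.40 or more). Exon lengths and positions come from GENCODE M21 and promoters from RefSeq. The fitting was tested on simulated data, drawn with the same mean levels in both genotypes apart from a set of changed genes. That test does not bear on the choice of scaling. The members and lists were chosen with earlier results of these data known. Every member is named, with values in every library for called members and for Lgr5, Axin2, Ctnnb1, Hopx and Bmi1, and at most 6 called genes of each other list are named, smallest p first, with Vdr added.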

Additional observations from a re-analysis of the deposited data

How the results depend on the processing

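Of the alternatives, library totals alone gave 20 members higher and 1 lower, 20 other Wnt pathway genes higher, 13 crypt base genes higher and 5835 of all genes called, against 10, 4, 6, 6 and 2596 as reported. Pan-epithelial factors gave 3 members higher, and 1 higher and 5 lower other Wnt pathway genes against 6 and 3, and without a filter 6 of these were lower. Leaving out single libraries gave 6 to 10 members higher and 2 to 3 lower, 3 to 7 other Wnt pathway genes higher and 2 to 5 lower, and 1124 (without Lingo3-/- replicate 3) to 2686 genes in all, with fewer samples in each fit. Among uncalled members, the log2 fold change changed sign with library totals for Apc (0.23), Gsk3b (0.16), Bcl9 (0.12), Tnfrsf19 (0.14) and Tert (0.26), with pan-epithelial factors for Axin1 (-0.088), Ctnnb1 (-0.13), Prom1 (-0.083), Bmi1 (-0.070) and Mex3a (-0.17), and for Mex3a also with upper-quartile factors (-0.019) and limma-voom (-0.030). Without single libraries it ran from -0.44 to 0.31 for Mex3a, -0.42 to 0.014 for Tnfrsf19 and -0.083 to 0.096 for Tert. On the log2 scale, the median over all genes itself moved by 0.28 with library totals and by -0.21 with pan-epithelial factors. The cause of the sign changes of single members was not tested. Same-numbered libraries of the 2 genotypes did not deviate together from their group means (correlations across genes of -0.01, -0.12 and -0.10). The other pairs across the genotypes gave -0.12 to 0.22. Deviations from a mean of 3 libraries constrain one another, so this check cannot tell whether the numbers pair the libraries. With the replicate block 7 members were higher and 5 lower, 3 other Wnt pathway genes were higher, and 2061 of all genes were called. The least deeply counted tested members were Lef1, Ascl2, Nkd1, Msi1, Mex3a, Tnfrsf19 and Tert, at 12 to 105 counts per library.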
